A study of Mus musculus with 6 samples.

Results

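The 10 genes described here encode a receptor chain, a kinase, transcription factors and feedback inhibitors of cytokine signalling: Ifngr1, Jak1, Stat3, Stat4, Stat5a, Stat5b, Stat6, Socs1, Socs3 and Cish. They were taken by gene name from the 54532 genes of the deposited count table, each name matched 1 row, and all 10 were among the 14054 genes tested. Many cytokine receptors have no kinase of their own and carry JAK kinases, which phosphorylate the receptor and then STAT proteins when the cytokine binds. Phosphorylated STATs pair up, enter the nucleus and switch on target genes, among them SOCS proteins and CIS, which bind back to receptors and kinases and damp the signal. In CD8+ T cells this route carries interferon gamma, interleukins 2, 4, 6, 7, 12 and 15, and the length and strength of an effector response depend on it.

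Messenger RNA of CD8+ T cells from mouse liver was sequenced in bulk in 3 control libraries, whose genotype label is Wild type, and 3 libraries labelled CUMS in the same field. The series text places them in a study of chronic stress and of damage to liver CD8+ T cells, and the labels do not spell CUMS out. Strain, age, sex, the length of the stress and the way the cells were purified are not stated in the labels. Nor do the labels say whether replicates came from separate or pooled animals, and the p-values therefore reflect variation among libraries that could be technical.

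Library totals ran from 14902248 to 18023206 counts. A pair of libraries, CUMS replicates 2 and 3, differed from the rest: of 1263 genes averaging 1 to 2 CPM (reads on a gene per 1000000 counts, after TMM library factors), 20.03% and 22.5% had no read in them, against 0.0792% to 1.90% in the others. No gene with a mean of 10 to 2000 CPM lacked reads in any library, and the 10 genes lie in that range. The libraries held the transcripts of CD8+ T cells, and 11 T cell and CD8 markers together reached 4850 to 5237 CPM in control and 5628 to 6155 CPM in CUMS. They also held transcripts of other cells, of which the CD4 and regulatory T cell markers and the monocyte and neutrophil markers were lower in CUMS, with values given beside the results below.

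The receptor gene Ifngr1 was the only 1 of the 10 genes to pass the test between CUMS and control, and it fell. It encodes the ligand-binding chain of the interferon gamma receptor, found on most cell types. Ifngr1 (ENSMUSG00000020009, mm10 chromosome 10, 19591949 to 19610229, plus strand) had 436.3, 441 and 431 CPM in control replicates 1, 2 and 3, and 343, 303 and 277 CPM in CUMS replicates 1, 2 and 3. The control libraries lay within a narrow band, and each CUMS library lay below all of them. The means were 436 ± 5.31 and 308 ± 33.0 CPM (SD, n = 3), a level 1.42-fold lower in CUMS (log2 fold change -0.50 ± 0.11 SE, 95% interval -0.74 to -0.27; edgeR quasi-likelihood adjusted p = 0.0466). By the same rule, 184 of 14054 genes passed, which is 1.31% of those tested, with 0.946% passing as lower and 0.363% as higher. Ifngr1 also passed with DESeq2 (adjusted p = 0.000128), which called 5.19% of genes, and with limma voom with sample weights (adjusted p = 0.00756), which called 3.54%. On counts simulated with the dispersions estimated by edgeR, a setting that may favour edgeR, 50 of 214 DESeq2 calls were false. The false calls were 12 of 167 with edgeR and 10 of 165 with voom. In bulk RNA, fewer cells of a type and less RNA per cell cannot be told apart.

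The call on Ifngr1 lay close to the threshold of 0.05. It held without CUMS replicate 1 (edgeR adjusted p = 0.037) and missed the threshold without control replicate 1, 2 or 3 (edgeR adjusted p = 0.146, 0.237 and 0.094) or CUMS replicate 2 or 3 (0.145 and 0.0982), with log2 fold changes of -0.60 to -0.44 over these 6 fits. Without CUMS replicates 2 and 3 together the log2 fold change was -0.35 ± 0.12 (edgeR adjusted p = 0.315). Alongside, the 15 monocyte and neutrophil markers summed to 4052 to 6300 CPM in control and 2678 to 2889 CPM in CUMS. With their mean level as a covariate the log2 fold change of Ifngr1 was -0.42 ± 0.31, which missed the threshold. In that fit 0 of all genes tested passed. The marker sums did not overlap between the groups, so the fit cannot separate marker level from group.

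**Figure D1:**
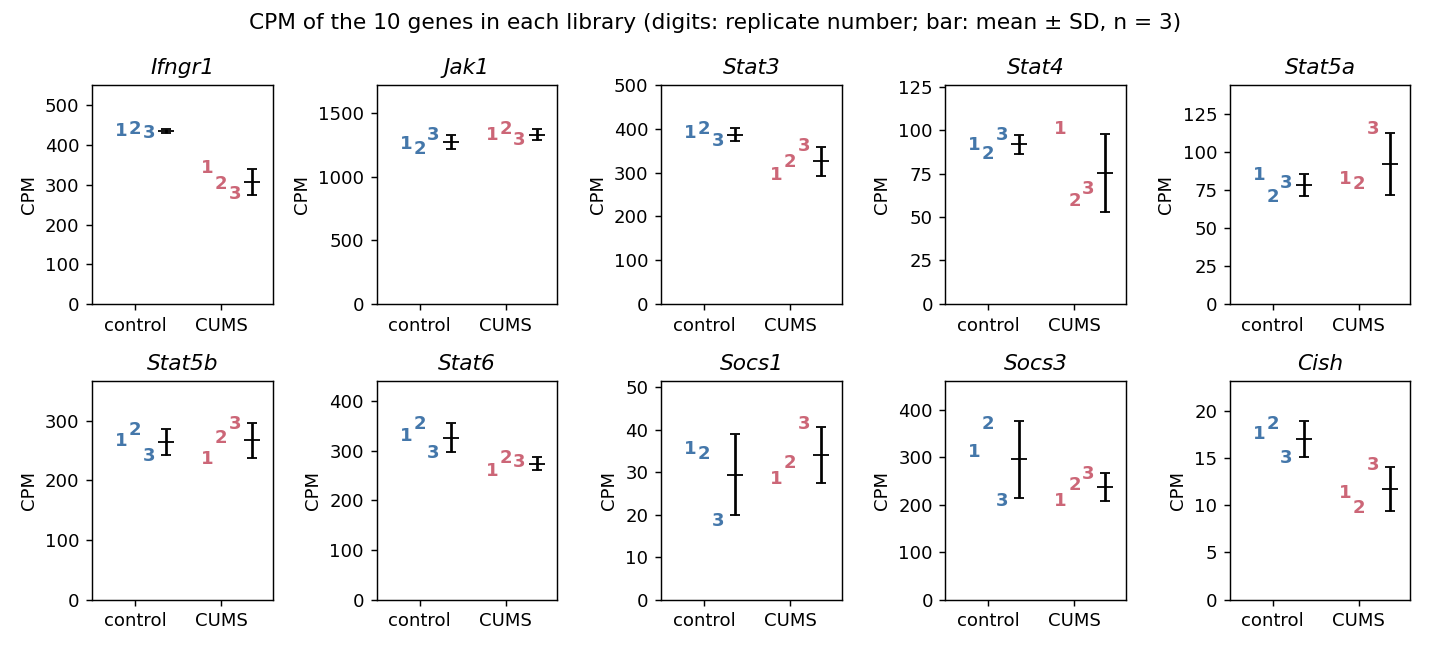
CPM of each of the 10 genes (vertical axes, each from 0) in the control and CUMS groups (horizontal axis). Digits mark replicate numbers and the bars give mean ± SD of 3 libraries. The Ifngr1 values of CUMS lie at 277 to 343, below 431 to 441 in control, and control replicate 3 is the lowest library for Socs1 at 18.5.

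The 250 bases upstream of the RefSeq start of Ifngr1 are shown because this gene carried the call; they come from RefSeq (GRCm38.p6, chr10:19591699-19591948, plus strand), and that start is the gene start of the deposited table. Capitals mark the GC box letters GGGCGG on either strand, here read as CCGCCC, and 35.7% of 32851 promoter windows of 300 bases hold them.
Ifngr1: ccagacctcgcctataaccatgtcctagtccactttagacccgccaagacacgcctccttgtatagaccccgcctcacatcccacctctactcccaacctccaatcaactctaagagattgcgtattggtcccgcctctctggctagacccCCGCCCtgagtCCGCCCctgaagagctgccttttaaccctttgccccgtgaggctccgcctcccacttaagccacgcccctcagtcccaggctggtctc
The palindromic letters TTCNNNGAA, the core to which most STAT dimers bind, were not found in the 300 bases around this start, nor were the letters TTCNNNNGAA with the wider spacing that STAT6 accepts.

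The kinase gene Jak1 was the most abundant of the 10 by CPM, and its groups overlapped. JAK1 binds the receptor chain encoded by Ifngr1 and the receptors of many interleukins. Jak1 (chromosome 4, 101152367 to 101265282, minus strand) had 1259, 1219 and 1330 CPM in control and 1324, 1376 and 1288 CPM in CUMS. Its log2 fold change was 0.07 ± 0.09 (95% interval -0.13 to 0.26; edgeR adjusted p = 0.803). The interval contains 0.

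Jak1 also served as a measure from the same library. The ratio of Ifngr1 to Jak1, each per kilobase of gene length, was 0.88, 0.92 and 0.82 in the control libraries and 0.66, 0.56 and 0.55 in the CUMS libraries. The groups did not overlap in this ratio, which needs no scaling between libraries. The ratio of Ifngr1 to Ifngr2, the gene of the signalling chain of the same receptor, was 11.3, 9.17 and 13.03 in control and 10.1, 7.88 and 8.57 in CUMS, and these ranges overlapped. Ifngr2 itself had 51.3, 63.7 and 43.8 CPM in control and 44.7, 50.9 and 42.8 CPM in CUMS (log2 fold change -0.20 ± 0.16, edgeR adjusted p = 0.635).

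None of the 5 STAT genes passed the test. Stat3 and Stat6 had values below the controls in every CUMS library, as had 12.0% of all genes tested. STAT3 acts downstream of interleukins 6, 10 and 21, and STAT6 downstream of interleukins 4 and 13. Stat3 (chromosome 11, 100885098 to 100939540, minus strand) had 389.9, 401 and 372 CPM in control and 295, 323 and 360.2 CPM in CUMS. The lowest control value and the highest CUMS value were close together, and the log2 fold change was -0.25 ± 0.11 (edgeR adjusted p = 0.302). Stat6 (chromosome 10, 127642986 to 127660957, plus strand) had 331, 353 and 295 CPM in control and 259.6, 285 and 278 CPM in CUMS. Its log2 fold change of -0.25 ± 0.11 was close to that of Stat3 and also missed the threshold (edgeR adjusted p = 0.291). The 95% intervals, -0.48 to -0.01 for Stat3 and -0.49 to -0.02 for Stat6, are not corrected for the number of genes.

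Stat4 split the CUMS libraries. STAT4 carries the signal of interleukin 12 that drives interferon gamma production in T cells. Stat4 (chromosome 1, 51987148 to 52107189, plus strand) had 91.5, 86.6 and 97.5 CPM in control, 100.9 CPM in CUMS replicate 1, and 59.5 and 66.0 CPM in CUMS replicates 2 and 3. CUMS replicate 1 was thus the highest of the 6 libraries, and the pair of CUMS libraries that lacked reads for many scarce genes were the lowest. The log2 fold change was -0.28 ± 0.18 over all libraries (edgeR adjusted p = 0.512), -0.56 without CUMS replicate 1 (edgeR adjusted p = 0.0734) and 0.13 without CUMS replicates 2 and 3.

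Stat5a and Stat5b encode near-identical factors that carry the signals of interleukins 2, 7 and 15. Stat5b (chromosome 11, 100780731 to 100850724, minus strand) had 266, 284 and 242 CPM in control and 236, 270 and 294 CPM in CUMS, and the ranges overlapped almost entirely (log2 fold change 0.01 ± 0.12, 95% interval -0.24 to 0.27, edgeR adjusted p = 0.975). Stat5a (chromosome 11, 100859351 to 100885169, plus strand) had 84.6, 70.4 and 79.5 CPM in control and 82.2, 79.0 and 115 CPM in CUMS. CUMS replicate 3 alone lay above all other libraries, and the log2 fold change was 0.24 ± 0.16 (edgeR adjusted p = 0.535), or 0.04 without that library. Per kilobase of the deposited gene length, Stat5b stood above Stat5a in every library. The ratios were 4.05, 5.20 and 3.91 in control and 3.71, 4.41 and 3.28 in CUMS.

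The 3 genes Stat5b, Stat5a and Stat3 lie in a row on chromosome 11, and the ends of Stat5a and Stat3 overlap by 72 bases on opposite strands (100885098 to 100885169), so reads there cannot be told apart without a stated strand setting. Of the 100-base windows of the longest protein-coding Stat5a transcript in GENCODE M21, 6.99% also occur in Stat5b, and 5.18% of those of Stat5b occur in Stat5a, where the counting could split or drop reads. No such window of Stat3 occurs in Stat5a. By gene span, Jak1, Stat4, Stat6 and Cish also overlap other genes, where reads could be assigned to either gene or dropped. The longest of these overlaps is that of Stat4 with Gm28177 on the same strand, 29929 bases, and Gm28177 had 0 to 35 counts in a library. Cish overlaps Gm17040 and Gm17041 on the opposite strand by 1167 and 1459 bases, and these had at most 1 and 0 counts. The others are 432 bases for Stat4 with Gm3940, 172 and 104 bases for Jak1 with Gm12785 and Gm24468, all 3 with at most 17 counts, and, with protein-coding genes, 40 bases for Stat6 with Nab2 and 4 bases for Jak1 with Raver2.

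The 3 inhibitor genes did not pass either, and each had its own pattern over the libraries. CIS, encoded by Cish, is a feedback inhibitor induced by STAT5 that also restrains T cell receptor signalling. Cish (ENSMUSG00000032578, chromosome 9, 107296026 to 107302784, plus strand) was the scarcest of the 10, with 17.5, 18.5 and 14.9 CPM in control and 11.3, 9.65 and 14.2 CPM in CUMS. Every CUMS library lay below every control library, CUMS replicate 3 only slightly, and 12.0% of all genes tested had this pattern. The log2 fold change of -0.53 ± 0.23 was close to that of Ifngr1 and had a larger standard error, and the 95% interval ran from -1.03 to -0.04 (edgeR adjusted p = 0.287).

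SOCS3 blocks JAK kinases at receptors that use the gp130 chain and at the interleukin 12 receptor, and SOCS1 blocks JAKs in interferon gamma and interleukin 2 signalling. Socs3 (chromosome 11, 117966079 to 117970047, minus strand) had 309.9, 369 and 209 CPM in control and 207, 240.5 and 265 CPM in CUMS. Its control libraries were spread widely, and control replicate 3 was as low as the lowest CUMS library (log2 fold change -0.32 ± 0.18, edgeR adjusted p = 0.462). Socs1 (chromosome 16, 10782240 to 10785536, minus strand) had 35.4, 34.3 and 18.5 CPM in control and 28.4, 32.2 and 41.2 CPM in CUMS (log2 fold change 0.21 ± 0.24, edgeR adjusted p = 0.769). Control replicate 3 was the lowest library for Socs1 and next to the lowest for Socs3, and without it the log2 fold changes were -0.05 for Socs1 and -0.53 for Socs3.

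Set against each other within a library, Socs3 and Socs1 gave ratios that did not overlap between the groups, and the ratios were not tested. The ratio of Socs3 to Socs1 per kilobase was 8.81, 10.8 and 11.4 in the control libraries and 7.33, 7.51 and 6.47 in the CUMS libraries. Every CUMS ratio lay below every control ratio, with means of 10.3 ± 1.34 and 7.10 ± 0.556 (SD, n = 3). Of the 5 within-library ratios computed, this one and that of Ifngr1 to Jak1 did not overlap between groups, and those of Stat5b to Stat5a, Stat3 to Jak1 and Ifngr1 to Ifngr2 did. Among single genes tested, 22.7% did not overlap, and no such share was computed for ratios. Ifngr1 alone did not overlap either, so its ratio to Jak1 is not a separate result, while Socs3 and Socs1 alone each overlapped.

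Socs3 and Cish were the only members with the STAT core letters TTCNNNGAA in a RefSeq promoter window (GRCm38.p6, 250 bases before to 50 after a start), and 30 bases with these letters are shown for each because both genes are feedback targets of STATs. All 10 genes matched the RefSeq table, with 13 windows in all, and 8.3% of 32851 windows of this length hold the letters, which read the same on both strands. The Cish stretch (chr9:107296654-107296683, plus strand) holds the letters at bases 1 and 12 counted from the RefSeq start. That start lies inside the span of Cish in the deposited table, 107296026 to 107302784. The Socs3 stretch (chr11:117969501-117969530, minus strand) holds them from base -154. That stretch lies inside the span of Socs3 in the deposited table, 117966079 to 117970047. Capitals mark the letters.
Cish: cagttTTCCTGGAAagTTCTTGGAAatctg
Socs3: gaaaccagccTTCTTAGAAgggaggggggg
The TTCNNNNGAA spacing, held by 6.95% of all windows, was in none of the 13. A match describes the letters and does not show that a STAT binds there.

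**Figure D2:**
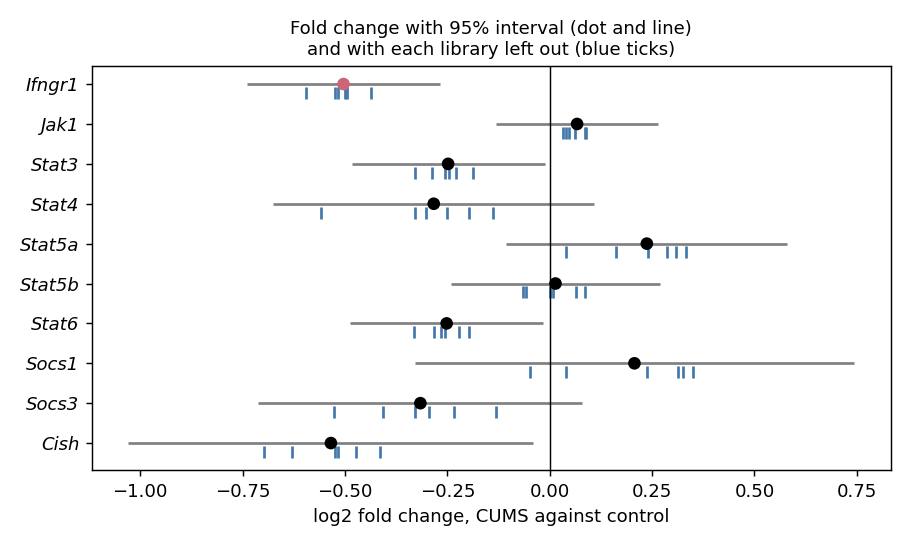
Log2 fold change of CUMS against control for each of the 10 genes (horizontal axis). Dots and lines give the estimate over all 6 libraries with its 95% interval, red for Ifngr1, which passed the threshold, and blue ticks give the estimates with each library left out. The ticks of Ifngr1 run from -0.60 to -0.44, and those of Stat5b and Socs1 fall on both sides of 0.

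Of the 10 genes, 4 had values below the controls in every CUMS library (Ifngr1, Stat3, Stat6 and Cish), 0 had values above in every library, and 6 overlapped. Over all genes tested, 22.7% did not overlap between groups, 12.0% of all genes as lower in CUMS and 10.8% as higher. The median log2 fold change was -0.25 for the 10 genes and -0.01 for all genes tested. The 10 genes were chosen by name with earlier results of these data known, so these counts describe them only.

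Per kilobase of gene length, the 10 transcripts spanned a wide range, with Jak1 and Ifngr1 at the top and Cish at the bottom. The level in RPKM (CPM per kilobase) in control was 176 ± 7.79 for Jak1, 153 ± 1.87 for Ifngr1, 102 ± 28.01 for Socs3 and 74.2 ± 6.66 for Stat6 (SD, n = 3). Stat5b had 47.7 ± 3.89 RPKM, Stat3 40.7 ± 1.54, Stat4 23.7 ± 1.42, Stat5a 10.96 ± 1.01, Socs1 10.1 ± 3.26 and Cish 2.65 ± 0.289. Among neighbours in this order, the control ranges overlapped for Socs3 and Stat6 and for Stat5a and Socs1. In CUMS they overlapped for Stat4 and Stat5a and for Stat5a and Socs1, and Ifngr1 at 108 ± 11.6 RPKM still ranked above Socs3 at 82.2 ± 10.03. The lengths are those of the deposited table, which for some genes exceed that of the longest protein-coding GENCODE transcript. They are 6419 against 2850 bases for Cish, 7133 against 3888 for Stat5a and 9527 against 6042 for Stat3. The 2 lengths are closer for Stat5b (5539 and 5213) and equal for Socs1 (2908). Levels per kilobase of Cish, Stat5a and Stat3 may therefore be understated. The order of Stat5b and Stat3, and the size of the ratio of Stat5b to Stat5a, depend on the length used.

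**Figure D3:**
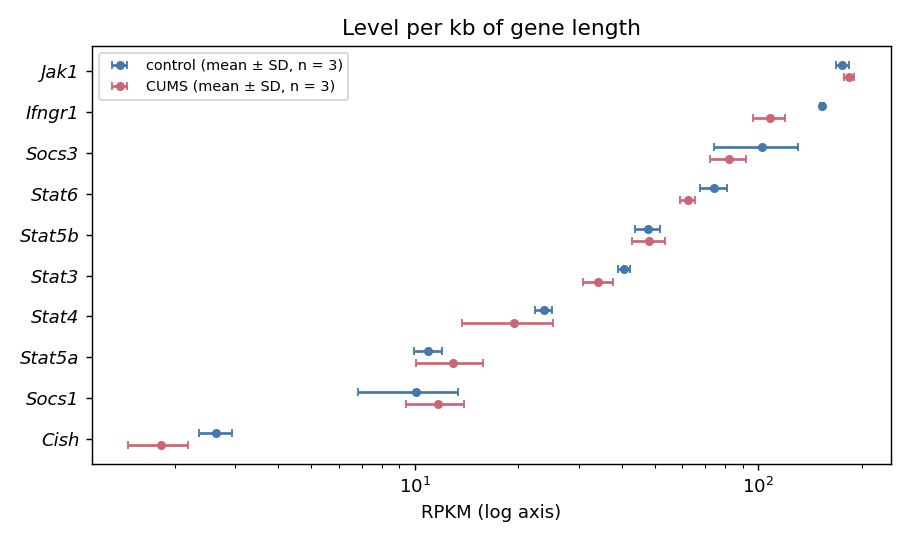
RPKM (horizontal log axis) of the 10 genes ordered by their control level, as mean ± SD of 3 control (blue) and 3 CUMS (red) libraries. Jak1 and Ifngr1 stand highest in control at 176 and 153, and Cish lowest at 2.65.

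The 10 genes did not share 1 pattern across the 6 libraries. Relative to its own mean in log2 CPM, Ifngr1 was at 0.24 to 0.27 in the control libraries and at -0.09, -0.27 and -0.40 in CUMS replicates 1, 2 and 3. Stat3, in contrast, was lowest in CUMS replicate 1 at -0.27 and near its mean in CUMS replicate 3 at 0.02. Cish was lowest in CUMS replicate 2 at -0.53, and Stat5a and Socs1 were highest in CUMS replicate 3 at 0.46 and 0.42.

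The likeness of other genes to Ifngr1 was measured as the root mean square difference of these centred log2 values over the 6 libraries, among 8477 other protein-coding genes of at least 10 CPM. The closest 3 were Oat, the mitochondrial ornithine aminotransferase (0.03), Slfn2, a Schlafen gene needed for T cell quiescence (0.034), and Hs3st3b1, a heparan sulfate sulfotransferase (0.051). Their own log2 fold changes were -0.54 ± 0.12, -0.50 ± 0.12 and -0.47 ± 0.12, and none passed (edgeR adjusted p = 0.0616, 0.0608 and 0.087). That these lie close to the value of Ifngr1 follows from how the genes were picked. Of the 9 other genes described here, Stat6 came nearest, at place 801 with a difference of 0.19, and Socs1 was farthest, at place 7881 with 0.538.

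**Figure D4:**
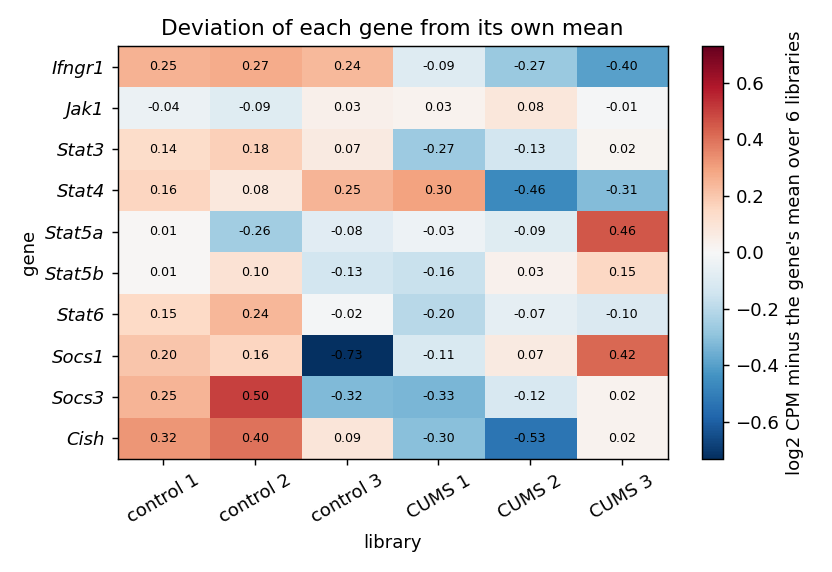
Log2 CPM of the 10 genes (rows) in the 6 libraries (columns), each gene minus its own mean, with red above and blue below. Ifngr1 is above its mean in all control libraries (0.24 to 0.27) and below it in all CUMS libraries, while Stat4 is at 0.30 in CUMS replicate 1 and at -0.46 and -0.31 in CUMS replicates 2 and 3.

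The rest of the JAK-STAT core did not pass in either direction. Of 21 other kinases, STATs, inhibitors and phosphatases tested, 0 rose, 0 fell and 21 did not pass, with a median log2 fold change of -0.05 against -0.01 for all genes tested. At an unadjusted p under 0.05, 2147 of all 14054 genes passed. Jak3, the kinase that pairs with JAK1 at receptors with the common gamma chain, had 218, 196 and 175 CPM in control and 229, 287 and 300.3 CPM in CUMS. Every CUMS library was above the controls, as for 10.8% of all genes tested, and the log2 fold change of 0.47 ± 0.13 missed the threshold (edgeR adjusted p = 0.106). Jak3 passed with DESeq2 (adjusted p = 0.0146), which made more false calls than edgeR on the same simulated counts, and in edgeR with no filter (0.0141). Over the alternatives its adjusted p ran from 0.0141 to 1. Jak2, the partner of JAK1 at the interferon gamma receptor, differed by -0.28 ± 0.11 on the log2 scale (edgeR adjusted p = 0.235), and Tyk2, a kinase of the interleukin 12 and type I interferon receptors, 0.28 ± 0.12 (0.284). Stat2, a STAT of the type I interferon receptor, had 79.99 ± 1.58 CPM in control and 79.3 ± 17.02 CPM in CUMS (SD, n = 3) and did not pass (edgeR adjusted p = 0.982).

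Upstream of the 10 genes, 1 of 20 receptor chains that signal through JAKs fell, against 0.946% of all genes tested, 0 rose and 19 did not pass. It was Il2rb, the shared chain of the interleukin 2 and 15 receptors, which had 719, 664 and 649 CPM in control and 443, 474 and 521 CPM in CUMS (log2 fold change -0.50 ± 0.10, edgeR adjusted p = 0.0419). Its groups did not overlap, and the call was lost when control replicate 1, 2 or 3 or CUMS replicate 1 or 2 was left out (edgeR adjusted p = 0.0686 to 0.178). Of 16 genes of cytokines that use this route, only 5 were abundant enough to test and 0 passed. Interferon gamma itself, Ifng, had 5.48, 4.04 and 3.09 CPM in control, 2.64 CPM in CUMS replicate 1 and no read in CUMS replicates 2 and 3 (edgeR adjusted p = 0.456), where 3 counts would be 0.19 and 0.201 CPM. These are the libraries that lacked reads for many scarce genes. Ifng passed in 1 of the 6 fits that left out 1 library, the one without CUMS replicate 1, in which both remaining CUMS libraries had no read (edgeR adjusted p = 0.0336, and up to 0.767 in the other 5). Il15 had 9.27, 19.98 and 10.98 CPM in control and 7.68, 6.88 and 4.94 CPM in CUMS (log2 fold change -1.04 ± 0.33, edgeR adjusted p = 0.161).

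Genes known to respond to these cytokine signals were described by 5 lists. These lists and those above were chosen with earlier results of these data known, so their counts describe them only. The lists share genes: 4 genes of the STAT3 list and 3 of the STAT4 list are on another list. Il2ra, Eomes and Csf3r, the last from the receptor chains above, are also among the cell type markers below. Of 20 tested genes induced by interferon gamma, 0 passed, 14 had a positive and 6 a negative log2 fold change, and the median was 0.12. Nlrc5, the activator of MHC class I genes, had 346, 346 and 389 CPM in control and 439, 499.6 and 497 CPM in CUMS (0.41 ± 0.11, edgeR adjusted p = 0.085). The GTPase gene Igtp, which overlaps Irgm2 on the same strand, stood at -0.35 ± 0.11 on the log2 scale (edgeR adjusted p = 0.167). Their values lay on opposite sides of 0 within the same list.

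Of 11 tested genes of the STAT3 list, 4 fell, 0 rose and 7 did not pass, with all 11 log2 fold changes negative and a median of -0.64; among all genes tested 0.946% fell and the median was -0.01. The transcription factor Maf had 33.6, 40.2 and 28.3 CPM in control and 11.3, 9.22 and 15.4 CPM in CUMS (log2 fold change -1.51 ± 0.23, edgeR adjusted p = 0.0154). The survival gene Mcl1 had 1048, 1192 and 1041 CPM in control and 723, 741 and 645 CPM in CUMS (-0.64 ± 0.10, edgeR adjusted p = 0.0188). The costimulatory receptor Icos (-0.70 ± 0.12) and the NF-kB cofactor Bcl3 (-0.82 ± 0.16) fell too, and all 4 had non-overlapping groups. In the 6 fits that left out 1 library, Mcl1 passed in 4, Maf in 3, and Icos and Bcl3 in 1. Without CUMS replicates 2 and 3 together none of the 4 passed (edgeR adjusted p = 0.139 to 0.169). With the monocyte and neutrophil covariate 0 genes of the list passed, and neither did any other gene tested, so the lost calls are not particular to this list. The log2 fold change in that fit was -0.82 for Maf, -0.33 for Mcl1, -0.79 for Icos and -0.84 for Bcl3.

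Of 15 genes of the STAT5 list, Mcl1, which is also on the STAT3 list, fell and 14 did not pass (median -0.28). Of 10 genes of the STAT4 list, the homeobox factor Hlx fell (12.7 ± 2.59 CPM in control and 4.58 ± 0.924 CPM in CUMS, log2 fold change -1.47 ± 0.30, edgeR adjusted p = 0.0396) and 9 did not pass, with all 10 negative and a median of -0.93. Without the control libraries in turn, or CUMS replicate 1 or 2, Hlx missed the threshold (edgeR adjusted p = 0.0689 to 0.255). Of 7 tested genes of the STAT6 list 0 passed, and the median was -0.04. The factor Klf4 had the smallest p among them (-1.04 ± 0.28, edgeR adjusted p = 0.0959), followed by the chitinase-like gene Chil3 (0.59 ± 0.30, 0.399). Over all 8 lists, 100 distinct genes were tested, of which 6 fell and 0 rose, against 0.946% and 0.363% of all genes tested. Of the 100, 66 had a negative log2 fold change, and the share of negative values over all genes was not computed. The median was -0.12, against -0.01 for all genes tested. Jak3, Ifng, Icos, Bcl3 and Nlrc5, like Slfn2 above, overlap another gene that has reads, which leaves their values uncertain.

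Markers of other cell types moved between the groups in the same libraries, where 0.946% of all genes tested fell and 0.363% rose. Of 6 CD4 and regulatory T cell markers, 4 fell, with a median log2 fold change of -1.26 and a summed level of 382 to 431 CPM in control and 169 to 181 CPM in CUMS. Of 15 monocyte and neutrophil markers, 6 fell, with a median of -0.79. Of 9 NK cell markers 0 passed, with a median of -0.61 and a summed level of 328 to 418 CPM in control and 231 to 269.7 CPM in CUMS. Of 11 T cell and CD8 markers, Cd8a rose and 10 did not pass, with a median of 0.16. The sums of 10 B cell markers overlapped (689 to 752 CPM in control, 702 to 795 CPM in CUMS), and those of 10 hepatocyte markers did not (145 to 283 and 115 to 135 CPM). Hp made up most of the hepatocyte sum (137 to 269.8 CPM in control, 100.2 to 119 CPM in CUMS), and of the 5 hepatocyte markers tested 0 passed, the other 4 had positive log2 fold changes, and the median was 0.44. Kupffer cell markers were scarce (20.2 to 27.2 and 9.98 to 14.9 CPM over 9 genes), with Timd4 at 0 in every library. Monocytes and neutrophils also express Ifngr1, Stat3, Stat6 and Socs3, and CD4 T cells express Maf and Icos. The part of CD4 T cells in the values above was not tested. That of monocytes and neutrophils was examined only in the covariate fit, which cannot separate marker level from group.

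**Figure D5:**
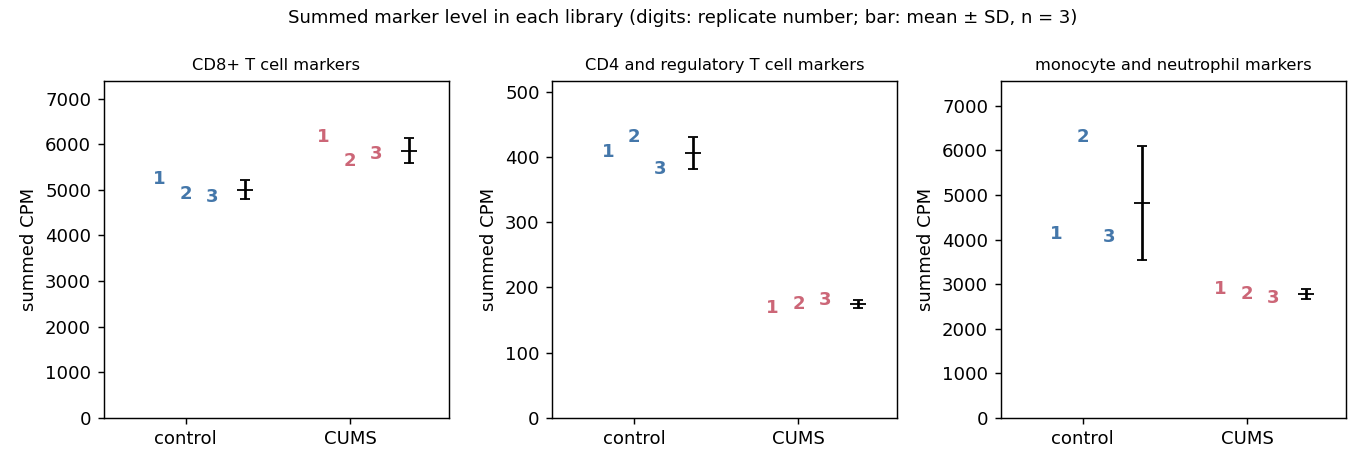
Summed CPM (vertical axes from 0) of 11 T cell and CD8 markers, 6 CD4 and regulatory T cell markers and 15 monocyte and neutrophil markers in each library, with digits for replicate numbers and bars for mean ± SD of 3. CD4 and regulatory T cell markers lie at 382 to 431 in the controls against 169 to 181 in CUMS, and control replicate 2 has the highest monocyte and neutrophil sum at 6300.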

How the data were processed

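Bulk RNA-seq of mouse liver CD8+ T cells was analysed in 3 control and 3 CUMS libraries, grouped by sample title. The authors deposited whole-number read counts for each gene, with no normalization. The submitters' processing notes name the build mm10, fastp, featureCounts 1.5.0-p3, HISAT2 2.0.5 and DESeq2 1.20.0. Neither the gene annotation release nor the counting's strand mode is given in the sources used here.

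The test across genes was that of edgeR 4.0.16 (R 4.3.3): filterByExpr, TMM factors, quasi-likelihood F test (legacy form), no covariate, two-sided, Benjamini-Hochberg adjustment over all 14054 genes tested, threshold 0.05. The standard error is the log2 fold change over the root of F. CPM is scaled by TMM factors, and RPKM is CPM per kilobase of the deposited gene length. The biological coefficient of variation was 29.8%. An exact permutation test of 3 against 3 cannot go below a two-sided p of 0.1 and was not used. Within-group library pairs had a chi-square per gene of 9.27 to 33.5, so none agreed within counting noise. The floor of 3 counts covers counting error only. The intervals of the log2 fold changes rest on the standard error from the quasi-likelihood F test, which includes variation among libraries.

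The alternatives were median-of-ratios factors, library size alone, no filter, a stricter filter (a mean count of 50, with 1 CPM reached in 3 libraries), DESeq2 1.42.0, voom with sample weights in limma 3.58.1, a replicate block, a monocyte and neutrophil marker covariate (mean log2 CPM, prior count 2), each library left out, CUMS replicates 2 and 3 left out, and protein-coding genes only. Members, lists and alternatives were chosen with earlier results of these data known. Genes named besides the 10 are up to 4 per list past the threshold with the smallest p, the 2 with the smallest p in lists with none, Ifngr2, Jak2, Jak3, Tyk2 and Stat2, and the 3 nearest to Ifngr1; 1 other listed gene is not reported here. On simulated counts for CUMS against control (13434 genes tested, 200 changed), edgeR recovered 40% of genes changed by 1.5-fold and 78% of those changed by 2-fold, so a gene that missed the threshold is not shown to be unchanged. Of the calls there, 12 of 167 were false with edgeR, 50 of 214 with DESeq2 and 10 of 165 with voom. With no gene changed, DESeq2 made 9 calls, and edgeR and voom 0. The simulation was not repeated, used the dispersions estimated by edgeR and changed only genes of at least 10 CPM. It did not include the missing reads of CUMS replicates 2 and 3. Its shares of false calls may therefore differ from those in the data. Promoter sequences are from RefSeq (GRCm38.p6). Figures were drawn with matplotlib 3.10.9.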

Additional observations from a re-analysis of the deposited data

How the results depend on the processing

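The number of genes past the threshold was 184 with all libraries and no covariate, and the number among the 10 genes (1, Ifngr1) and among the listed pathway genes (6) varied as well. The 3 counts were 644, 1 and 21 with DESeq2, 497, 1 and 15 with voom and sample weights, 704, 1 and 19 with no filter, 316, 1 and 12 with the stricter filter, 280, 1 and 11 with protein-coding genes only, and 172, 0 and 5 with library size alone. With the monocyte and neutrophil covariate edgeR gave 0, 0 and 0, with 153 genes at an unadjusted p under 0.05. Without CUMS replicates 2 and 3 together they were 7, 0 and 0. With 1 library left out they ran from 9 to 178, 0 to 1 and 0 to 8. The lone CUMS library was assumed to vary like the controls. With a replicate block they were 71, 0 and 2 (Ifngr1 edgeR adjusted p = 0.113). Deviations of same-numbered libraries correlated at 0.0137, -0.0358 and -0.0369 across genes, against -0.0154 to 0.0417 for differently numbered ones. These values gave no sign that the replicate numbers pair the libraries, and they cannot show that the libraries were unpaired.

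The log2 fold change of Ifngr1 stayed negative in all 16 alternatives, from -0.60 to -0.35, with adjusted p from 0.000128 (DESeq2) to 1 (covariate), and it missed the threshold in 9 of them, among them library size alone (edgeR adjusted p = 0.0564). Stat3 and Cish kept their sign in all 16. Estimates with the other sign from that over all libraries were found in genes that had not passed. They were -0.091 for Jak1, -0.11 for Stat5a, 0.027 for Stat6, 0.56 for Socs3 and 0.50 for Ifngr2 with the covariate. Stat5b ran from -0.064 to 0.086 with 1 library left out and was -0.020 with voom and -0.17 without CUMS replicates 2 and 3. They were 0.13 for Stat4 and -0.056 for Socs1 without CUMS replicates 2 and 3, and with 1 library left out Socs1 ran from -0.049 to 0.35. Stat2 was at 0.024 with library size alone and 0.0053 with the stricter filter, and ran from -0.21 to 0.071 with 1 library left out. The cause was not tested. The 10 genes had at least 157 counts in every library.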
